A study of Mus musculus with 64 samples.

Results

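A set of 10 genes in use as markers of inhibitory neurons of the forebrain is described here across 8 groups of mouse brain samples. Gad1, Gad2 and Slc32a1 serve the making and packing of GABA, and Pvalb, Sst, Vip, Npy, Cck, Reln and Lhx6 mark classes of interneuron. Every probe set annotated to these genes was taken, whatever its level, which gave 17 of the 45037 probe sets that were not controls, and 10 of the 18193 genes named by a probe set of their own. Pvalb, Sst, Vip, Npy and Cck had 1 probe set each, Gad1, Gad2, Reln and Lhx6 had 2 each, and Slc32a1 had 4. None of the 17 was annotated to another gene as well. Gad1, Gad2, Slc32a1 and Lhx6 lie on chromosome 2, Reln on 5, Npy on 6, Cck on 9, Vip on 10, Pvalb on 15 and Sst on 16 in the RefSeq annotation, at separate places.

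The study measured RNA from Tg2576 mice and from non-transgenic littermates, called wild-type here, after 28 days with PF-04447943 or vehicle. Each of the 8 groups held 8 arrays: hippocampus of Tg2576 mice given PF-04447943, of Tg2576 mice given vehicle, of wild-type mice given PF-04447943 and of wild-type mice given vehicle, and prefrontal cortex of the same 4 kinds of mice. All mice were 4 months old, were B6SJLF1 (C57Bl/6 crossed with SJL) and carried a minipump under the skin, so the vehicle groups had the surgery too. Tg2576 mice over-express a mutant human amyloid precursor protein, and in this line a prion protein promoter drives the transgene, so that it is not restricted to inhibitory neurons. PF-04447943 inhibits PDE9A, a phosphodiesterase that breaks down cyclic GMP. The labels do not say whether the arrays of both regions came from the same mice.

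Inhibitory neurons make GABA from glutamate with the decarboxylases GAD67 (Gad1) and GAD65 (Gad2), and the vesicular transporter VGAT (Slc32a1) loads it into synaptic vesicles. In cortex and hippocampus, cells born in the medial ganglionic eminence need the transcription factor Lhx6 and become parvalbumin or somatostatin interneurons, while the caudal ganglionic eminence gives VIP interneurons and many of those with reelin or cholecystokinin. None of these genes is private to local interneurons. The projection neurons of the striatum, which lies under the frontal cortex, are GABAergic and hold Gad1, Gad2 and Slc32a1, many pyramidal cells hold Cck, and Cajal-Retzius cells hold Reln. In RNA from whole tissue, fewer cells of a type and less RNA per cell cannot be told apart.

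Values were log2 of RMA intensities, and all level statements below are on that scale. Pairs of arrays of a region correlated at 0.974 or more in hippocampus and at 0.976 or more in prefrontal cortex. The regional labels matched their markers: genes of dentate granule cells averaged 8.71 ± 0.48 in hippocampus and 6.67 ± 0.16 in prefrontal cortex (SD, n = 32 arrays each). A single hippocampal array was an exception. Replicate 1 of the Tg2576 mice given PF-04447943 had a dentate marker level of 6.72, inside the range of the prefrontal cortex arrays (6.44 to 6.99), while the other 31 hippocampal arrays lay between 8.20 and 9.32. Genes of striatal projection neurons ran from 8.12 to 11.09 in prefrontal cortex, against 7.87 to 8.47 in hippocampus, and every prefrontal cortex group held arrays at both ends. In prefrontal cortex, wild-type PF-04447943 replicate 8 and wild-type vehicle replicate 5 held 5 and 7 of the 18 member values that lay far from the other 7 of their group. The hippocampal array and this pair are the 3 arrays that stand apart, and each difference below was also computed without them. A fit within 1 region left out only its own, so the hippocampal fits lost that hippocampal array alone. The pair from prefrontal cortex was chosen on member values after they were seen, and both are wild-type. Their striatal levels were 10.31 and 11.09, and 4 Tg2576 arrays that were kept were above the lower of these, with 11.01 the highest. Arrays numbered 1 to 4 and 5 to 8 also differed: the first principal component of the deviations from group means held 22.9% of the variance in hippocampus and 45.3% in prefrontal cortex, and its correlation with this split had a size of 0.50 and 0.78. The labels do not say what the numbers stand for, so values are also given within each set of numbers. The probe sets of App and Prnp do not check the transgene: 0 of the 4 passed limma between Tg2576 and wild-type mice in either region.

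**Figure D1:**
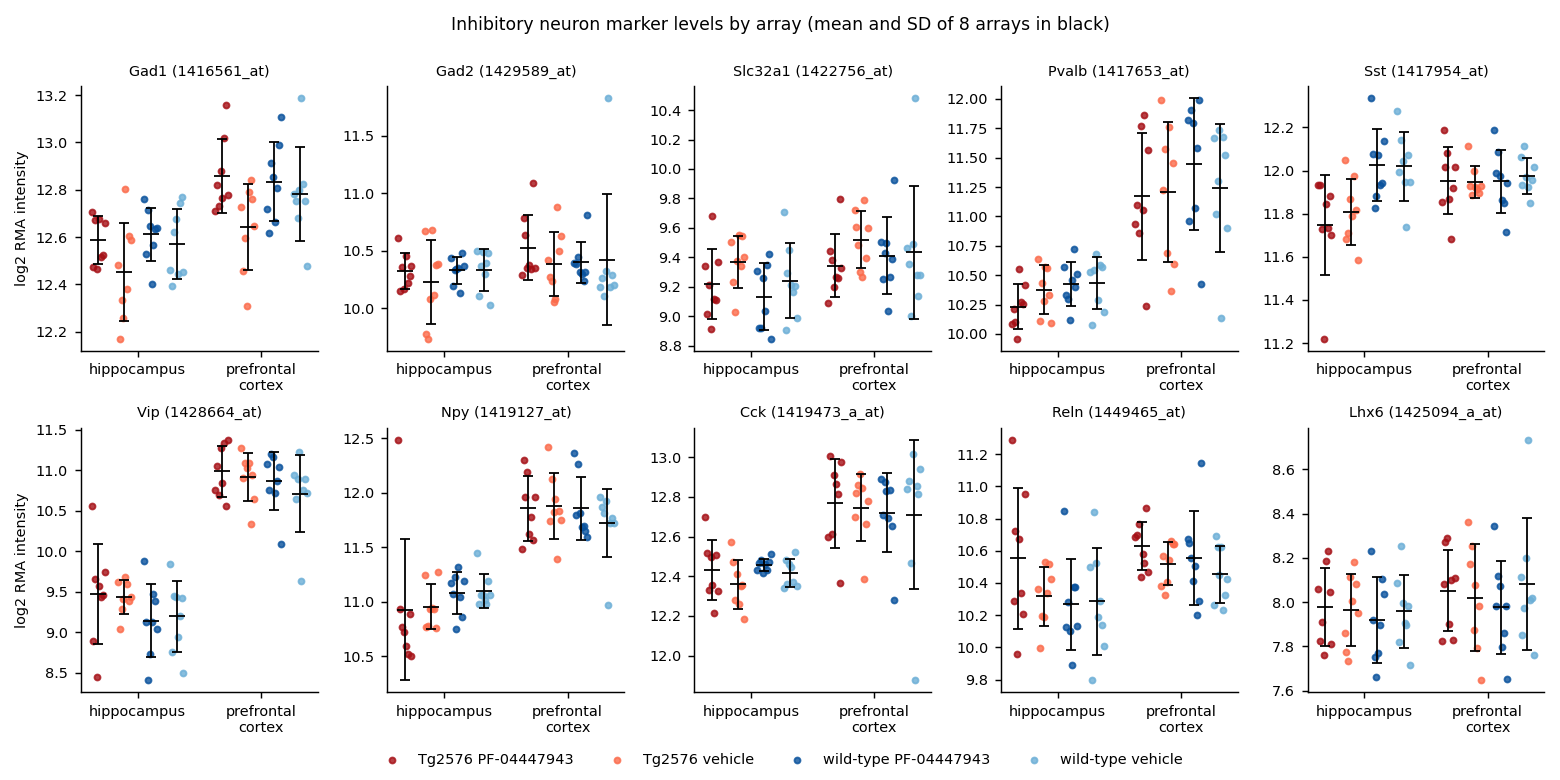
Log2 RMA intensity of the brightest probe set of each of the 10 genes in every array, by region and group, with the mean and SD of 8 arrays in black. Vip, Pvalb, Npy and Cck sit lower in hippocampus than in prefrontal cortex, Sst sits lower in the Tg2576 groups than in the wild-type groups of hippocampus, and single arrays lie far from their group for Npy, Gad2 and Slc32a1.

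The transgene question is whether inhibitory neuron markers differ between Tg2576 and wild-type mice. Over both treatments, 0 of the 15 probe sets that were bright enough to test passed limma at an adjusted p of 0.05 in hippocampus, where 26 of 27022 probe sets passed (0.0962%). The Slc32a1 probe set 1447573_at and the Reln probe set 1458020_at were too dim and were not tested. Only Sst had an unadjusted p under 0.05, 1 of 15 probe sets, against 7.42% of all probe sets. The 15 differences ran from -0.24 for Sst to 0.28 for Vip. Of them 9 of 15 were above 0, against 49.7% of all probe sets, and their median was 0.052 against -0.00042 for all probe sets. These counts hold several probe sets of some genes. By the brightest probe set of each gene, 1 of the 3 genes of GABA synthesis and transport was above 0 (median -0.053). Of the 7 class markers 3 were above 0 (median -0.042).

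Sst, the gene of the peptide somatostatin, marks interneurons that contact the dendrites of pyramidal cells. Its lowest, median and highest levels in hippocampus were 11.22, 11.79 and 11.93 in Tg2576 mice given PF-04447943 and 11.58, 11.80 and 12.05 in Tg2576 mice given vehicle. They were 11.83, 12.01 and 12.34 in wild-type mice given PF-04447943 and 11.74, 12.02 and 12.28 in wild-type mice given vehicle. The Tg2576 arrays lay lower on the whole, but the groups overlapped. Sst was at -0.24 ± 0.063 (SE) in Tg2576 minus wild-type hippocampus, a fold of 0.844, and 15 of 16 Tg2576 arrays lay below the wild-type mean of the same treatment. Its adjusted p in limma was 0.201 (unadjusted 0.000467), so the difference did not pass, although it was number 62 of 27022 by p. The difference was -0.21 (95% interval -0.39 to -0.030) under vehicle and -0.28 (-0.46 to -0.10) under PF-04447943. It was -0.31 among replicates 1 to 4 and -0.18 among replicates 5 to 8. Without the hippocampal array that stands apart it was -0.26, with an adjusted p of 0.147. By treatment, 0 of 15 probe sets passed under vehicle, where 0.0111% of all probe sets did, and 0 of 15 under PF-04447943, where 0% did. Sst was again the only one of 15 with an unadjusted p under 0.05, against 6.11% of all probe sets under vehicle and 4.69% under PF-04447943.

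Markers of dentate granule cells lay lower beside Sst. Of the 8 dentate granule cell genes tested, 0 were above 0 in Tg2576 minus wild-type hippocampus, their median was -0.38, and 1 fell, Npnt, at -0.43 (adjusted p = 0.00401 in limma). The mean level of the list ran from 6.72 to 9.13 in Tg2576 mice given PF-04447943 and from 8.35 to 8.83 in Tg2576 mice given vehicle. It ran from 8.20 to 9.32 in wild-type mice given PF-04447943 and from 8.43 to 9.28 in wild-type mice given vehicle. With the dentate marker level as a covariate, Sst passed limma at -0.33 (adjusted p = 0.0176). Without the hippocampal array that stands apart as well, Sst was at -0.36 (adjusted p = 0.00526). This covariate was chosen after seeing the data. Its list holds Npnt and itself lay lower in Tg2576 mice, so these values are not the plain genotype difference. Over all other alternatives for Sst, the adjusted p ran from 0.111 to 0.375. Vip, which marks interneurons that contact other interneurons, did not pass either way. Vip was at 0.28 (adjusted p = 0.704) without the dentate covariate and at -0.072 (adjusted p = 0.954) with it.

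The remaining hippocampal markers did not pass between genotypes, and their intervals show what sizes remain possible. Pvalb, the calcium-binding protein of fast-spiking basket cells, was at -0.12 (95% interval -0.27 to 0.016). Npy was at -0.15 (-0.40 to 0.10) and at -0.26 without the hippocampal array that stands apart. Cck was at -0.042 (-0.12 to 0.038) and Reln at 0.16 (-0.063 to 0.38). The probe sets of the decarboxylases were at -0.071 and 0.073 for Gad1 and at -0.053 and 0.059 for Gad2, with signs that differed between the 2 probe sets of each gene. The 3 tested Slc32a1 probe sets were all above 0, at 0.11, 0.12 and 0.052, and the Lhx6 probe sets were at 0.031 and 0.085.

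In prefrontal cortex, 0 of 15 probe sets passed limma between genotypes, where 7 of 27022 did (0.0259%), and 0 of 15 had an unadjusted p under 0.05, against 11.3% of all probe sets. The Sst levels there were 11.68, 11.97 and 12.19 in Tg2576 mice given PF-04447943 and 11.88, 11.93 and 12.11 in Tg2576 mice given vehicle (lowest, median and highest). They were 11.72, 11.96 and 12.19 in wild-type mice given PF-04447943 and 11.85, 11.96 and 12.11 in wild-type mice given vehicle. The 4 groups overlapped almost fully. Sst was at -0.014 (95% interval -0.10 to 0.076), Vip at 0.16 (-0.094 to 0.42) and Pvalb at -0.15 (-0.54 to 0.23), the last with the widest interval of the 3. The test of the difference itself, the genotype difference in hippocampus minus that in prefrontal cortex, gave -0.23 ± 0.077 for Sst (unadjusted p = 0.00385, adjusted p = 0.781 in limma) and passed for 0 of 15 probe sets, where 0% of all probe sets passed. By unadjusted p, 1 of 15 were under 0.05, against 6.09%. By treatment in prefrontal cortex, 0 of 15 passed under vehicle (0% of all probe sets) and 0 of 15 under PF-04447943 (0%), with 0 of 15 at an unadjusted p under 0.05 in either, against 10.8% and 3.39% of all probe sets.

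**Figure D2:**
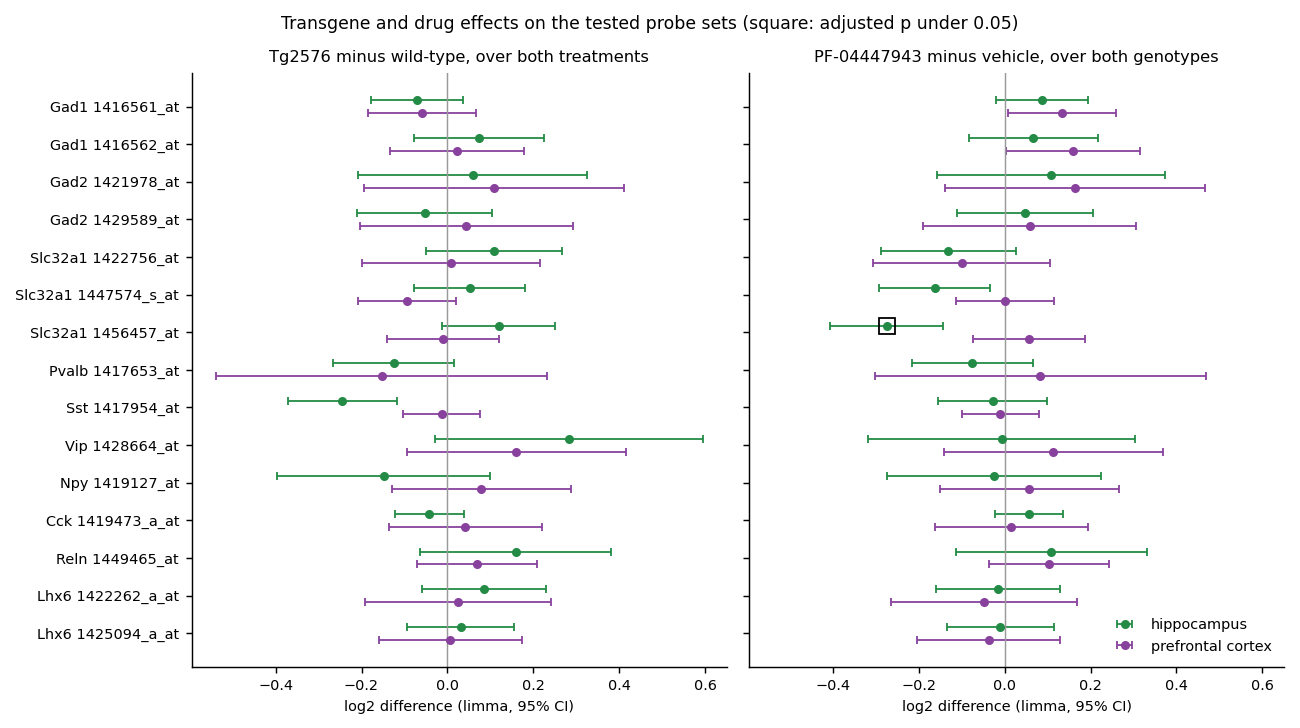
Log2 differences with 95% limma intervals of the 15 tested probe sets for Tg2576 minus wild-type and for PF-04447943 minus vehicle in each region. Squares mark an adjusted p under 0.05, which only the Slc32a1 probe set 1456457_at reached, for PF-04447943 in hippocampus.

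PF-04447943 was followed by a fall of 1 marker probe set in hippocampus. Over both genotypes 1 of 15 probe sets passed limma, lower under the compound, where 589 of 27022 passed (2.18%, with 0.777% higher and 1.40% lower). The unadjusted p was under 0.05 for 2 of the 15, both lower, against 20.9% of all probe sets. The probe set that fell was 1456457_at of Slc32a1, the vesicular GABA transporter. Its lowest, median and highest levels were 7.05, 7.20 and 7.44 in Tg2576 mice given PF-04447943 and 7.06, 7.58 and 7.73 in Tg2576 mice given vehicle. They were 6.80, 7.13 and 7.29 in wild-type mice given PF-04447943 and 7.15, 7.34 and 7.63 in wild-type mice given vehicle. The compound groups lay lower and overlapped the vehicle groups.

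The Slc32a1 probe set 1456457_at fell by 0.27 on the log2 scale (SE 0.064), a fold of 0.827, with an adjusted p of 0.0273 in limma, and 16 of 16 compound arrays lay below the vehicle mean of the same genotype. It was at -0.29 in Tg2576 mice (adjusted p = 0.339) and -0.26 in wild-type mice (adjusted p = 0.223), neither past the test, and the drug by genotype term was -0.031 (95% interval -0.29 to 0.23). The other probe sets of the gene did not pass: 1447574_s_at was at -0.16 (adjusted p = 0.142) and 1422756_at, the brightest, at -0.13 (adjusted p = 0.333). Gad1 and Gad2, which act with Slc32a1 in the same cells, were at 0.087, 0.067, 0.047 and 0.11, all above 0 and none past the test. Of all probe sets 64.5% were above 0 in this comparison, with a median of 0.032. Without the hippocampal array that stands apart the fall of 1456457_at was 0.28 (adjusted p = 0.0308). Within a genotype 0 of 15 probe sets passed, where 0% of all probe sets passed in Tg2576 mice and 0.00370% in wild-type mice. In each, 1 of 15, this probe set, had an unadjusted p under 0.05, against 10.7% of all probe sets in Tg2576 mice and 15% in wild-type mice.

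This call was close to its threshold. It was lost without any 1 of 4 arrays: the value was -0.26 (adjusted p = 0.0512) without Tg2576 PF-04447943 replicate 7, -0.26 (adjusted p = 0.0530) without Tg2576 vehicle replicate 2, -0.26 (adjusted p = 0.0529) without Tg2576 vehicle replicate 4 and -0.26 (adjusted p = 0.0510) without wild-type vehicle replicate 1. The signal range of an array, the interquartile range of its log2 values, was also higher under the compound: it averaged 3.60 ± 0.11 in Tg2576 mice given PF-04447943 and 3.51 ± 0.12 in Tg2576 mice given vehicle, and 3.65 ± 0.057 in wild-type mice given PF-04447943 and 3.51 ± 0.081 in wild-type mice given vehicle (SD, n = 8 each). With the signal range as a covariate, 1456457_at was at -0.15 (adjusted p = 0.715). It was at -0.39 among replicates 1 to 4 (adjusted p = 0.00990) and at -0.16 among replicates 5 to 8 (adjusted p = 0.881).

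In prefrontal cortex, 0 of 15 probe sets passed limma for PF-04447943 against vehicle, as did 0 of all 27022 (0%). Both Gad1 probe sets had an unadjusted p under 0.05, 2 of 15 against 2.26% of all probe sets. The brighter one, 1416561_at, had levels of 12.71, 12.80 and 13.16 in Tg2576 mice given PF-04447943 and 12.31, 12.69 and 12.84 in Tg2576 mice given vehicle. Its levels were 12.62, 12.83 and 13.11 in wild-type mice given PF-04447943 and 12.48, 12.77 and 13.19 in wild-type mice given vehicle. The groups overlapped. It was at 0.13 ± 0.062 (unadjusted p = 0.0372, adjusted p = 0.9996 in limma), at 0.22 in Tg2576 mice and 0.052 in wild-type mice. The other, 1416562_at, was at 0.16 ± 0.077 (unadjusted p = 0.0473, adjusted p = 0.9996 in limma). The Slc32a1 probe set 1456457_at was at 0.056 (95% interval -0.074 to 0.19) there. The drug difference in hippocampus minus that in prefrontal cortex was -0.33 ± 0.091 for it (unadjusted p = 0.000605, adjusted p = 0.131 in limma). By this test of the difference 0 of 15 probe sets passed, where 0.0296% of all probe sets did, and 1 of 15 had an unadjusted p under 0.05, against 9.09%. Without hippocampal Tg2576 vehicle replicate 5 it passed, at -0.36 (adjusted p = 0.0487). The drug by genotype term passed for 0 of 15 probe sets in either region, where 0% of all probe sets passed, with 0 of 15 at an unadjusted p under 0.05, against 3.43% in hippocampus and 3.06% in prefrontal cortex. Within a genotype of prefrontal cortex 0 of 15 passed for the compound (0% of all probe sets in Tg2576 mice and 0% in wild-type mice). At an unadjusted p under 0.05 there were 1 of 15 in Tg2576 mice, Gad1 1416561_at, against 2.93%, and 0 of 15 in wild-type mice, against 2.43%.

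Among the peptide genes, Sst, Vip and Cck are textbook genes with cyclic AMP response elements near their start, where CREB binds. PF-04447943 acts on the breakdown of another cyclic nucleotide, cyclic GMP, and a link from it to these elements was not tested. The sequences of these 3 genes are shown as background. They are the 100 bases before the start site (RefSeq, GRCm38.p6), 5′ to 3′ on the gene's strand. Capitals mark the full element TGACGTCA in Sst and its core TGACG, or the reverse complement CGTCA, in Vip and Cck.
Sst promoter, chr16:23890845-23890944, minus strand: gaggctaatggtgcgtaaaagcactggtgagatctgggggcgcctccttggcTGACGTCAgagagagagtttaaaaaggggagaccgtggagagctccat
Vip promoter, chr10:5639118-5639217, plus strand: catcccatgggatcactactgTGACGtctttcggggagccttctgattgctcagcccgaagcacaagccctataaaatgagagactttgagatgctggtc
Cck promoter, chr9:121495695-121495794, minus strand: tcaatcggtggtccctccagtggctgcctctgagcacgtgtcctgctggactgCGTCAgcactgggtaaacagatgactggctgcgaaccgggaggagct
The full element lies at -48 to -41 in Sst, and the cores at -79 to -75 in Vip and -47 to -43 in Cck, counted from the start site. Over windows from 250 bases before to 50 bases after the start, on either strand, TGACGTCA was found in 1 of the 13 promoters of the 10 genes, that of Sst, and in 1.79% of 32851 promoters. TGACG, which the full element holds on both strands, was found in 4 of 13, those of Sst, Vip, Cck and Gad2, and in 20.8% of all. The Slc32a1 window held neither. PF-04447943 minus vehicle was -0.028 (95% interval -0.16 to 0.10) for Sst, -0.0070 (-0.32 to 0.30) for Vip and 0.056 (-0.024 to 0.14) for Cck in hippocampus. In prefrontal cortex it was -0.010 (-0.10 to 0.080), 0.11 (-0.14 to 0.37) and 0.016 (-0.16 to 0.19). None of the 3 genes passed in either region.

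The regions differed far more than the genotypes or treatments did. Between hippocampus and prefrontal cortex 10 of 15 probe sets passed limma, 9 lower and 1 higher in hippocampus, where 68.3% of all probe sets passed (31.4% higher and 36.9% lower). All 10, and none of the other 5, had an unadjusted p under 0.05, against 70.7% of all probe sets. The median difference of the 15 was -0.18 against -0.016 for all probe sets. The share of the 15 that passed was close to that of all probe sets.

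Vip had the largest difference of the 15. Its lowest, median and highest levels over 32 arrays each were 8.40, 9.42 and 10.55 in hippocampus and 9.63, 10.90 and 11.37 in prefrontal cortex. The 2 regions overlapped. Vip was lower by 1.56 ± 0.10 on the log2 scale in hippocampus, which is 2.95-fold lower (adjusted p = 5.35e-21 in limma), and all 32 hippocampal arrays lay below the prefrontal cortex mean of their genotype and treatment. Without the 3 arrays that stand apart it was at -1.67.

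Pvalb levels were 9.96, 10.37 and 10.73 in hippocampus and 10.14, 11.38 and 11.99 in prefrontal cortex, and Npy levels, of neuropeptide Y, were 10.50, 10.97 and 12.48 in hippocampus and 10.97, 11.80 and 12.42 in prefrontal cortex. For Pvalb the hippocampal arrays were tightly grouped and the prefrontal cortex arrays widely spread, so that the low prefrontal cortex arrays reached the hippocampal range. Pvalb was 1.86-fold lower in hippocampus (log2 -0.90 ± 0.10, adjusted p = 1.75e-11), lower in 32 of 32 arrays. Npy was 1.76-fold lower (log2 -0.81 ± 0.081, adjusted p = 2.03e-13), lower in 31 of 32 arrays, and at -0.91 without the arrays that stand apart. Cck, a peptide gene of basket cells and of many pyramidal cells, had levels of 12.18, 12.43 and 12.70 in hippocampus and 11.87, 12.82 and 13.02 in prefrontal cortex. It was 1.25-fold lower (log2 -0.32 ± 0.048, adjusted p = 4.28e-08), lower in 32 of 32 arrays.

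Sst did not pass between regions. Its levels were 11.22, 11.93 and 12.34 in hippocampus and 11.68, 11.94 and 12.19 in prefrontal cortex, with the regions overlapping over most of their range, and hippocampus minus prefrontal cortex was -0.057 (95% interval -0.13 to 0.020, adjusted p = 0.186 in limma). By group the difference was -0.21 in Tg2576 mice given PF-04447943, -0.14 in Tg2576 mice given vehicle, 0.075 in wild-type mice given PF-04447943 and 0.043 in wild-type mice given vehicle. That the sign differed between genotypes is the genotype difference by region given above, which did not pass (adjusted p = 0.781).

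Among the genes of GABA synthesis and transport, Gad1 was lower in hippocampus with both probe sets, by 0.22 ± 0.041 (adjusted p = 2.60e-06) and 0.36 ± 0.054 (adjusted p = 3.16e-08). The levels of the brighter one were 12.17, 12.58 and 12.80 in hippocampus and 12.31, 12.77 and 13.19 in prefrontal cortex, with 31 of 32 hippocampal arrays below the matching mean and overlap between the regions. Gad2 did not pass: its probe sets were at -0.13 (95% interval -0.28 to 0.018) and 0.0039 (-0.20 to 0.21). The Slc32a1 probe sets disagreed, 1422756_at lower at -0.19 (adjusted p = 0.00899), 1447574_s_at higher at 0.10 (adjusted p = 0.0376) and 1456457_at at 0.0093 (adjusted p = 0.866). The higher call of 1447574_s_at was lost under median centring (0.112), quantile normalization (0.142), the signal range covariate (0.229) and the striatal marker covariate (0.0585), where the numbers are adjusted p-values, and in 15 of the 64 fits that left out 1 array. The lower call of 1422756_at was lost among replicates 5 to 8 (-0.20, adjusted p = 0.119 in limma).

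Reln, an extracellular protein of Cajal-Retzius cells and of some interneurons, was lower in hippocampus by 0.18 ± 0.066 (adjusted p = 0.0115), with levels of 9.79, 10.31 and 11.29 in hippocampus and 10.20, 10.55 and 11.15 in prefrontal cortex. The call was lost under quantile normalization (-0.13, adjusted p = 0.0712) and among replicates 1 to 4 (-0.16, adjusted p = 0.165). Lhx6, the transcription factor, was lower with 1 of its 2 probe sets, 1422262_a_at at -0.14 (adjusted p = 0.0463), while 1425094_a_at was at -0.077 (adjusted p = 0.178). The call of 1422262_a_at was lost in 32 of the 64 fits that left out 1 array, and it was at -0.12 without prefrontal cortex wild-type vehicle replicate 5. It was also lost with the signal range covariate (-0.054, adjusted p = 0.402), with the striatal marker covariate (-0.18, adjusted p = 0.0567) and with no filter (adjusted p = 0.0551).

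Striatal markers differed between regions too: all 11 striatal projection neuron genes tested were lower in hippocampus, with a median of -0.95. With the striatal marker level as a covariate, Vip was at -1.87 (adjusted p = 1.01e-21) and Pvalb at -1.43 (adjusted p = 8.99e-25), both further from 0. Slc32a1 1422756_at was then at -0.019 (adjusted p = 0.837) and Reln at -0.024 (adjusted p = 0.802), no longer past the test, while the Gad2 probe set 1421978_at passed at 0.32 (adjusted p = 0.0109). The striatal level spread over 8.12 to 11.09 in prefrontal cortex and over 7.87 to 8.47 in hippocampus, so the slope of this covariate comes mostly from prefrontal cortex arrays.

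**Figure D3:**
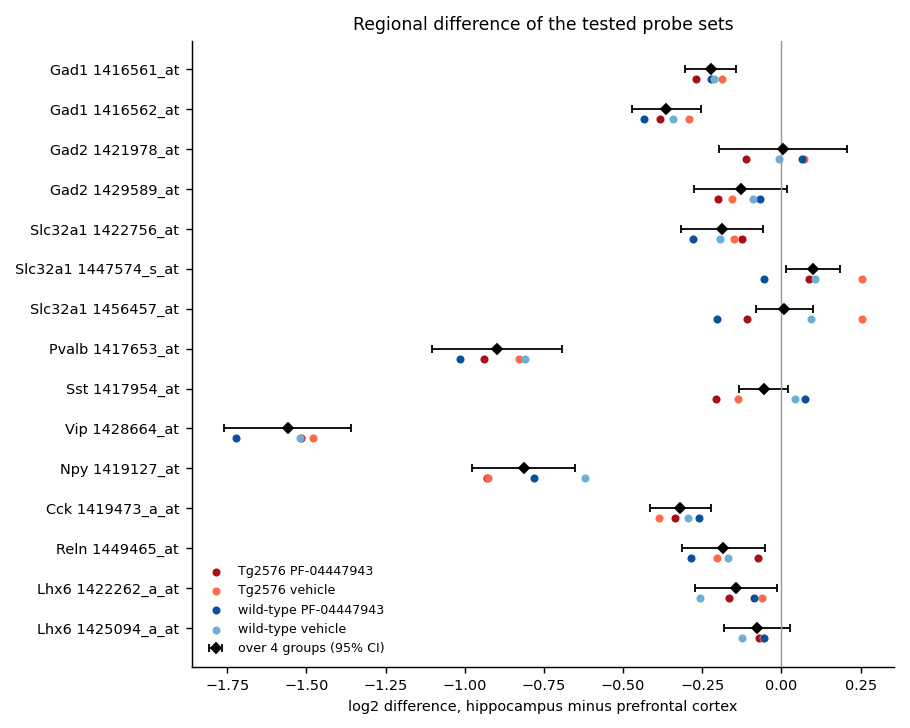
Hippocampus minus prefrontal cortex, log2 difference with its 95% limma interval, for the 15 tested probe sets, with small points for the same difference in each of the 4 groups. Vip lies lowest at -1.56, followed by Pvalb at -0.90 and Npy at -0.81, and Sst and Gad2 lie near 0.

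Other genes of interneurons were given by a list of 43 genes outside the 10, of which 38 had a probe set named for them alone and 33 were bright enough to test between regions. Of these, 13 were higher and 16 lower in hippocampus, with a median difference of -0.042. Of all probe sets, 31.4% were higher and 36.9% lower. The 6 with the smallest p were Lamp5 at -2.18, a marker of neurogliaform cells of cortex, Crh at -2.34, the gene of corticotropin-releasing hormone, Kit at 1.27, a receptor tyrosine kinase, Nos1 at 0.93, neuronal nitric oxide synthase, Tac2 at -1.16, the gene of neurokinin B, and Nr2f2 at 0.93, a transcription factor of cells from the caudal ganglionic eminence. Calb1 and Tac1 of this list are also in the dentate and striatal lists.

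None of the other interneuron genes passed limma for genotype or treatment. In hippocampus 0 of 31 passed between genotypes, against 0.0962% of all probe sets. An unadjusted p under 0.05 was reached by 5 of 31, against 7.42% of all probe sets. The 3 with the smallest p were Cort at -0.26, Tac1 at -0.40 and Tac2 at 0.40. Cort encodes cortistatin, a peptide close to somatostatin that is made by some of the same cells. For PF-04447943 against vehicle 0 of 31 passed, against 2.18% of all probe sets. There were 6 of 31 at an unadjusted p under 0.05, against 20.9% of all probe sets. The 3 with the smallest p were Cnr1 at 0.17, Kcnc2 at 0.13 and Cort at -0.21. In prefrontal cortex 0 of 33 passed between genotypes, against 0.0259% of all probe sets. There 4 of 33 were at an unadjusted p under 0.05, against 11.3% of all probe sets. The 3 with the smallest p were Htr3a at 0.20, Kit at 0.19 and Cnr1 at 0.20. For the compound 0 of 33 passed there, as did 0% of all probe sets. At an unadjusted p under 0.05 were 2 of 33, against 2.26% of all probe sets. The 3 with the smallest p were Cort at -0.22, Htr3a at 0.16 and Nr2f2 at -0.16.

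Within a region, the markers varied between arrays of the same group, and they did so together with markers of neighbouring cell populations. To describe this, the deviation of each array from its group mean was correlated over the 32 arrays of a region between each of the 10 genes, by its brightest probe set, and 11 marker lists. The p-values came from 100000 permutations of arrays within groups and were adjusted over all 220 relations. These permutations did not hold the replicate number fixed. With numbers 1 to 4 and 5 to 8 centred apart and permuted within each set, 23 of the 26 relations that passed in hippocampus and 28 of the 41 in prefrontal cortex passed again. Genes and lists share the arrays and the dissection, so these relations are not independent of each other. No share over genes outside the 10 is given beside these counts.

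In prefrontal cortex, Vip and Pvalb fell as the striatal marker level rose. Pearson's r was -0.89 for Vip (Spearman's rho -0.87, adjusted p = 0.000275 and 0.000275 by permutation) and -0.89 for Pvalb (rho -0.86, adjusted p = 0.000275 and 0.000275). Without the 2 arrays farthest from the median striatal level r was -0.87 and -0.86. Among replicates 1 to 4 it was -0.82 for Vip and -0.73 for Pvalb, and among replicates 5 to 8 it was -0.91 and -0.96. Npy (r = -0.68, adjusted permutation p = 0.000856) and Cck (r = -0.66, adjusted permutation p = 0.00124) fell as well, whereas Gad2 (r = 0.64, adjusted permutation p = 0.00167), Reln (r = 0.64, adjusted permutation p = 0.000880) and Slc32a1 (r = 0.50, adjusted permutation p = 0.0253) rose. For Slc32a1 r was 0.29 without the 2 farthest arrays, and with numbers 1 to 4 and 5 to 8 centred apart it did not pass (r = 0.49, adjusted permutation p = 0.0600). Sst (r = -0.15), Gad1 (r = 0.17) and Lhx6 (r = -0.25) did not pass.

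The level of excitatory neuron markers ran the other way. Vip (r = 0.94) and Pvalb (r = 0.90) rose with the level of excitatory neuron genes in prefrontal cortex, and Gad2 (r = -0.85) and Reln (r = -0.66) fell with it, with adjusted permutation p-values of 0.000275, 0.000275, 0.000629 and 0.000629. The array with the highest striatal level, wild-type vehicle replicate 5, had the lowest Vip of the 32 (9.63), the lowest Pvalb (10.14) and the highest Gad2 (11.82). The mean striatal level was 9.30 ± 1.12 in Tg2576 mice given PF-04447943, 9.26 ± 1.02 in Tg2576 mice given vehicle, 8.89 ± 0.93 in wild-type mice given PF-04447943 and 9.11 ± 0.97 in wild-type mice given vehicle (SD, n = 8 each), so the spread within groups exceeded that between them.

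In hippocampus the markers varied with the dentate granule cell level. Vip (r = -0.83, rho -0.82, adjusted p = 0.000275 and 0.000275 by permutation) and Reln (r = -0.77, rho -0.72, adjusted p = 0.000275 and 0.000800) fell as dentate markers rose, and r was -0.78 and -0.68 without the 2 farthest arrays. Slc32a1 (r = -0.48), Gad2 (r = -0.44) and Gad1 (r = -0.35) fell too, with adjusted permutation p-values of 0.0425, 0.00269 and 0.0368. The relation of Npy (r = -0.76, adjusted permutation p = 0.0253) rests in part on the farthest arrays: r was -0.41 without the 2 farthest arrays, 1 of which is Tg2576 PF-04447943 replicate 1 with an Npy level of 12.48, and rho did not pass (-0.42, adjusted p = 0.0646). Sst was at r = -0.52 (adjusted permutation p = 0.0863).

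**Figure D4:**
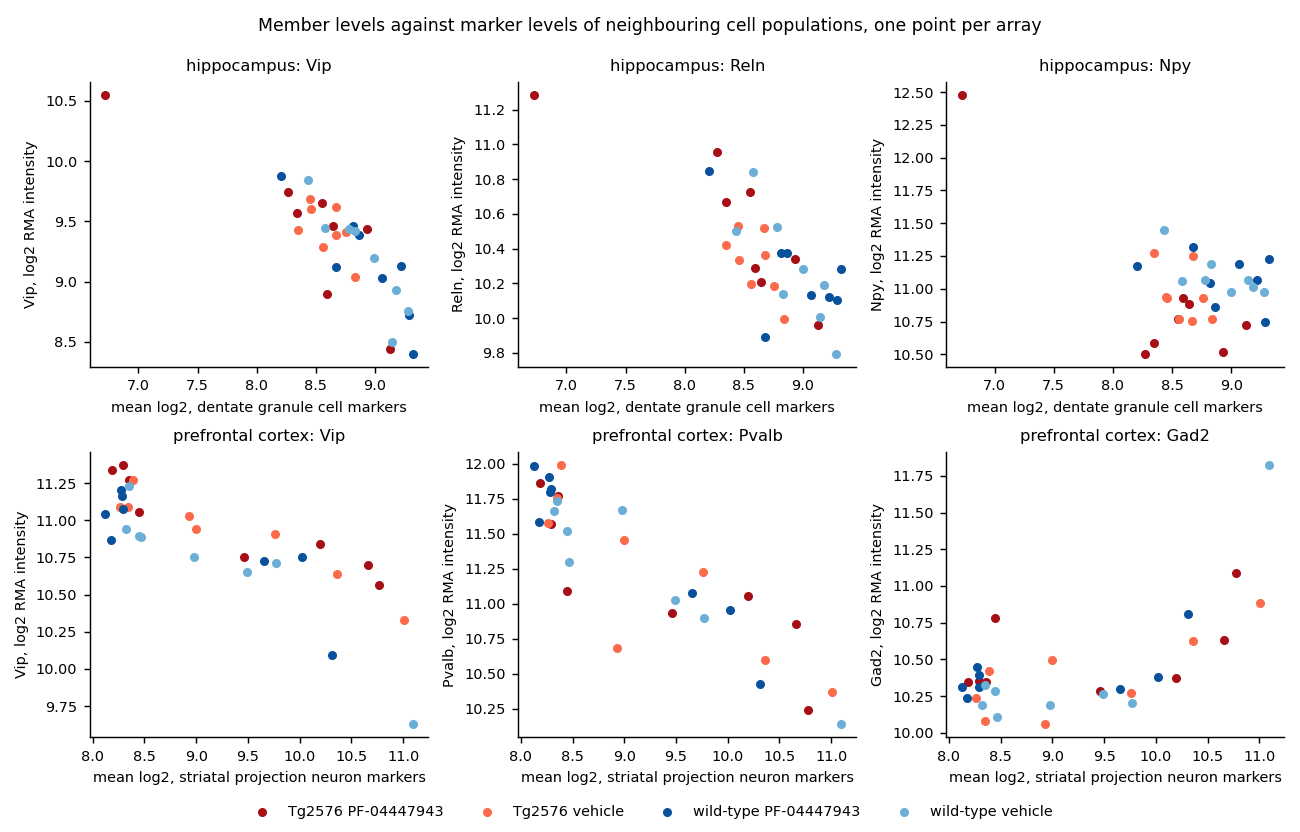
Log2 levels of Vip, Reln and Npy against the mean level of dentate granule cell markers in 32 hippocampal arrays (top), and of Vip, Pvalb and Gad2 against the mean level of striatal projection neuron markers in 32 prefrontal cortex arrays (bottom), coloured by group. Vip falls along both axes, and the lone hippocampal array at a dentate level of 6.72 has the highest Npy.

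The markers also varied with each other. Over 90 pairs, 45 in each region, 22 passed in hippocampus and all 22 had r above 0, while of 22 that passed in prefrontal cortex 12 had r above 0 and 10 below 0. No share over pairs of other genes is given beside these counts, so they are not shown to be particular to the markers. By rank correlation 18 of the 22 in hippocampus passed as well, all above 0. In prefrontal cortex 14 of the 22 did, 11 above 0 and 3 below 0, these being Reln with Pvalb, Vip and Cck, so that 7 of the 10 pairs below 0 did not pass by rank. With numbers 1 to 4 and 5 to 8 centred apart, 18 of the 22 hippocampal pairs and 20 of the 22 prefrontal cortex pairs passed again. Without the 2 farthest arrays 17 hippocampal pairs passed above 0 and 1 below 0. That pair was Cck with Reln, whose r was -0.46 there (adjusted permutation p = 0.0218), -0.36 without the array that stands apart and -0.065 over all 32.

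In hippocampus Vip and Reln rose and fell together (r = 0.79, rho 0.79, adjusted permutation p = 0.000180 and 0.000180), as did Gad1 and Gad2 (r = 0.74, rho 0.73, adjusted permutation p = 0.000762 and 0.000736). Without the 2 farthest arrays r was 0.69 and 0.63. Among replicates 1 to 4 and among replicates 5 to 8, r was 0.87 and 0.55 for Vip with Reln, and 0.72 and 0.80 for Gad1 with Gad2. Slc32a1 also went with Vip (r = 0.66, rho 0.75, adjusted permutation p = 0.000900 and 0.000386) and with Reln (r = 0.65, rho 0.76, adjusted permutation p = 0.00103 and 0.000180). For Sst with Vip r was 0.63 over all 32 arrays, 0.78 among replicates 1 to 4 and 0.10 among replicates 5 to 8. The pair of Npy and Cck (r = 0.54) was at 0.28 without the array that stands apart.

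In prefrontal cortex some pairs moved together and others against each other. Gad2 and Slc32a1 went together (r = 0.89, rho 0.75, adjusted permutation p = 0.000180 and 0.000180), and so did Pvalb and Vip (r = 0.89, rho 0.87, adjusted permutation p = 0.000180 and 0.000180). Gad2 went against Cck (r = -0.78, adjusted permutation p = 0.00109) and Vip (r = -0.77, adjusted permutation p = 0.00103), though neither passed by rank, with rho -0.39 (adjusted p = 0.0716) and -0.40 (adjusted p = 0.0602). Without the 2 arrays farthest from the median of Gad2, r was -0.50 (adjusted permutation p = 0.0437) and -0.58 (adjusted permutation p = 0.0181). The values of r below differed between sets of arrays, but the sets also differed in spread. The 16 arrays lower in striatal level spanned only 8.12 to 8.47, and the 16 higher spanned 8.93 to 11.09. An r nearer 0 in the lower 16 cannot be told apart from an effect of this narrower range, and what the opposed relations rest on was not tested. Wild-type vehicle replicate 5, with the highest Gad2 (11.82), belongs both to the 16 arrays of higher striatal level and to replicates 5 to 8. Among the 16 arrays lower in striatal level, r was 0.37 for Gad2 with Cck and -0.024 for Gad2 with Vip, and among the 16 higher arrays it was -0.92 and -0.91. Among replicates 1 to 4 it was 0.19 and -0.051, and among replicates 5 to 8, of which more arrays had a high striatal level, -0.95 and -0.89. Gad2 with Slc32a1 was above 0 in both sets of 16 (0.70 and 0.93), as did Pvalb with Vip (0.63 and 0.79). Sst with Npy, which share many cells, was at 0.83 among the lower 16 arrays and 0.32 among the higher 16.

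**Figure D5:**
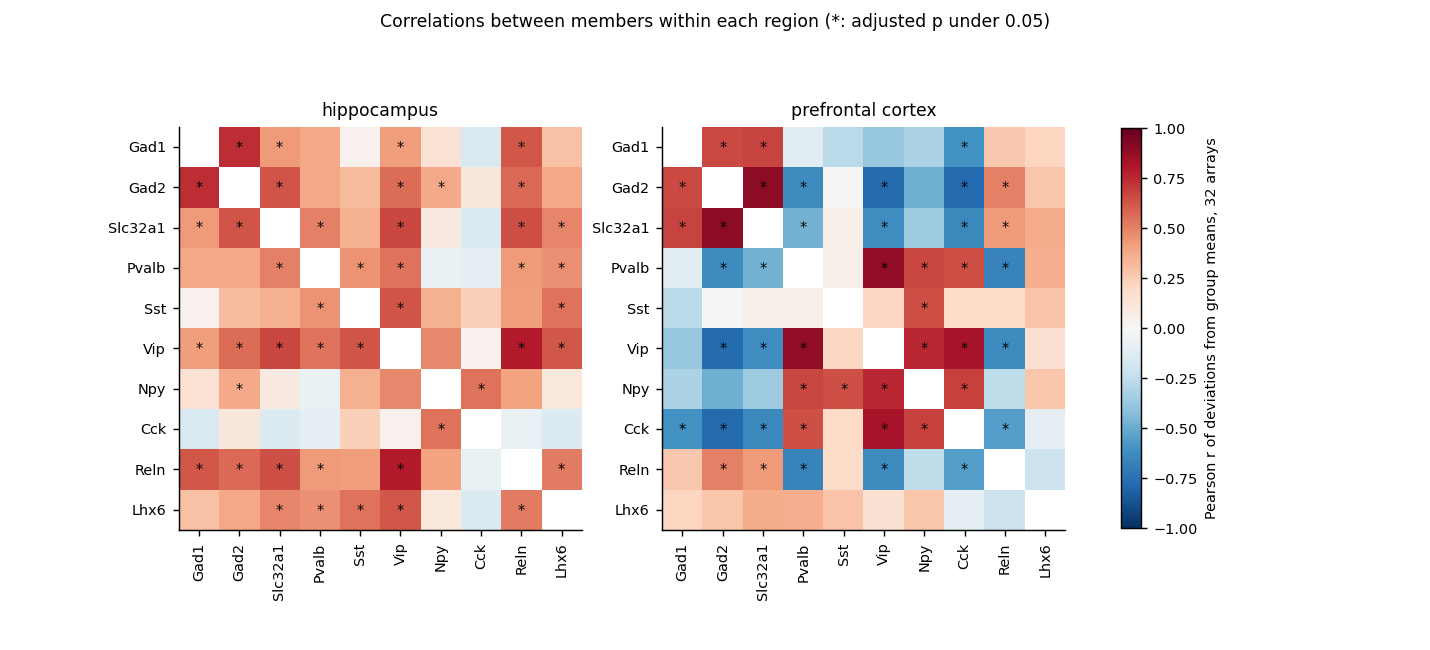
Pearson r between the 10 genes over the 32 arrays of each region, computed on deviations from group means, with a star where the adjusted permutation p is under 0.05. All starred pairs of hippocampus are above 0, and in prefrontal cortex Gad2 is starred below 0 with Cck and Vip and above 0 with Slc32a1.

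The genes most like the markers were found by the same correlation, by Pearson's r of deviations from group means over 32 arrays, among 12955 genes in hippocampus and 12919 in prefrontal cortex, and are given as a description with no test. Most like the mean of Gad1, Gad2 and Slc32a1 were Ppargc1a (0.80), Gabrg1 (0.79), Mreg (0.78), Dlx1 (0.77) and Lgi2 (0.77) in hippocampus and Sox1 (0.92), Abat (0.91), Pdyn (0.89), Rbms3 (0.87) and Nsg1 (0.85) in prefrontal cortex. Dlx1 is a transcription factor of developing interneurons, Abat breaks GABA down, and Pdyn, the prodynorphin gene, is in the striatal list. Most like Pvalb were Gpat3 (0.81) and Sgpp2 (0.79) in hippocampus and Kcnab3 (0.96) and Vamp1 (0.96) in prefrontal cortex, where Kcnab3 is a potassium channel subunit and Vamp1 a vesicle protein. Most like Vip were Arnt2 (0.93) and Rbp4 (0.92) in hippocampus and Pdzrn3 (0.96) and 1110008P14Rik (0.94) in prefrontal cortex. For Sst they were Prune1 (0.74) and Mpped1 (0.74) in hippocampus and Cnot9 (0.86) and Jmjd6 (0.84) in prefrontal cortex. For Npy they were Cd1d1 (0.87) and Racgap1 (0.87) in hippocampus and Hdac4 (0.89) and Tmem132d (0.88) in prefrontal cortex. For Cck they were Boc (0.82) and Dusp6 (0.77) in hippocampus and Ephb6 (0.93) and St8sia5 (0.93) in prefrontal cortex. For Reln they were Btbd11 (0.92) and Cdk18 (0.91) in hippocampus and Fam126a (0.83) and Ogfr (0.82) in prefrontal cortex. For Lhx6 they were Rab27b (0.86) and Prelid3b (0.84) in hippocampus and Smim17 (0.83) and Tnnt1 (0.82) in prefrontal cortex. Without the 2 farthest arrays the r of the hippocampal genes most like Npy fell to 0.60 for Cd1d1 and 0.52 for Racgap1.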

How the data were processed

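Total RNA taken up in Trizol was labelled with biotin and hybridised to Affymetrix mouse expression arrays, 1 per sample and 64 in all, per the labels' protocols. The authors deposited linear intensity values, and the submitters' processing notes name RMA. Its software and version, and whether all arrays went through it together, are not given in the sources used. Deposited intensities were converted to log2. Precision rests on the 8 arrays in each group and on 1 estimate of the spread shared by all groups of a fit. A genotype difference over both treatments, or a treatment difference over both genotypes, set 16 arrays against 16. The regional difference set 32 against 32.

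Probe sets were named from the platform annotation: 34945 had 1 symbol, 932 several, 9160 none, and 64 were controls. Probe sets with a mean below the 40th percentile of a fit (log2 5.94 for hippocampus, 5.91 for prefrontal cortex, 5.93 for all arrays) were left out, which left 27022 in each fit. Differences were fitted with limma 3.58.1 in R 4.3.3, 4 groups in 1 fit per region and 8 in 1 fit over both. Tests were two-sided, and p-values were adjusted by Benjamini-Hochberg across the 27022. Marker lists used the brightest probe set of a gene. Correlations and figures were computed in Python 3.11.15 with numpy 2.4.6, pandas 2.3.3, scipy 1.17.1 and matplotlib 3.10.9. The fits were tested on simulated data. Every probe set of the 10 genes is reported. Of the list of other interneuron genes the 6 with the smallest adjusted p are named where any passed, and otherwise the 3 with the smallest p. The members and lists were chosen with earlier results of these data known. Labels do not say that a replicate number marks a shared animal or day, so no block was used. The mice are given as 8 per group, and the limma p-values set a mean difference against the spread between arrays within groups.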

Additional observations from a re-analysis of the deposited data

Results flagged for a closer look

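In 18 of the 136 groups of 8 arrays formed by 17 probe sets and 8 groups, the highest or lowest array lay so far from the nearest of the others that the gap exceeded Dixon's 95% critical value, which is 13.2% of groups. Chance gives about 1 in 20 groups, and probe sets of 1 array are not independent. All values are log2 intensities.

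Prefrontal cortex wild-type vehicle replicate 5 held 7 of the 18. It was high for Gad1 1416562_at (12.10, next 11.58), for both Gad2 probe sets, 1421978_at (9.9998, next 8.37) and 1429589_at (11.82, next 10.33), for Slc32a1 1422756_at (10.48, next 9.49) and for Lhx6 1425094_a_at (8.73, next 8.20). It was low for Vip (9.63, next 10.65) and Npy (10.97, next 11.72). Prefrontal cortex wild-type PF-04447943 replicate 8 held 5. It was high for Gad1 1416562_at (12.30, next 11.78), Gad2 1429589_at (10.81, next 10.45) and Slc32a1 1456457_at (7.90, next 7.44), and low for Vip (10.09, next 10.72) and Cck (12.28, next 12.66).

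The other 6 fell on 6 arrays. Hippocampal Tg2576 PF-04447943 replicate 1 was high for Npy at 12.48, next 10.93, and hippocampal Tg2576 PF-04447943 replicate 4 was low for Sst at 11.22, next 11.70. Without replicate 4 Sst was at -0.21 in Tg2576 minus wild-type hippocampus (adjusted p = 0.192 in limma). Hippocampal wild-type vehicle replicate 1 was high for Npy at 11.45, next 11.19. The Slc32a1 probe set 1456457_at was low in hippocampal wild-type PF-04447943 replicate 3 at 6.80, next 7.06, and in prefrontal cortex Tg2576 vehicle replicate 6 at 6.89, next 7.20. The dim Reln probe set 1458020_at was low in hippocampal Tg2576 vehicle replicate 7 at 4.18, next 4.34.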

How the results depend on the processing

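Leaving out the 3 arrays that stand apart, splitting replicates 1 to 4 from 5 to 8, the dentate covariate, the split by striatal level, centring by number and rank correlation were chosen after seeing the data. For genotype in hippocampus the count of marker probe sets past the threshold was 0, and 1 (Sst) with the dentate covariate, with or without the hippocampal one of those 3 arrays. For PF-04447943 in hippocampus it was 1, and 0 with the 60th percentile filter and with the brightest probe set of each gene only, both of which leave the Slc32a1 probe set 1456457_at untested, and also 0 with the signal range covariate and among replicates 5 to 8; leaving out single arrays gave 0 to 1. For the drug difference between regions it was 0, and 0 to 1 when single arrays were left out. All other such counts stayed within 1.5 times. Between regions, 2 calls had the other sign among replicates 5 to 8: Lhx6 1422262_a_at was at 0.019 and Slc32a1 1447574_s_at at -0.010, and the cause was not tested. The Vip difference between regions stayed past the threshold under every alternative, from -1.87 to -1.40. In prefrontal cortex the r of Gad2 with Cck (-0.78) was 0.19 among replicates 1 to 4 and 0.37 among the 16 arrays of lower striatal level.

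Counts over all probe sets moved more. For PF-04447943 in hippocampus 589 passed, against 1666 with no filter, 148 with the 60th percentile, 257 with quantile normalization, 918 with array weights, 1 with the signal range covariate, 2399 and 0 among replicates 1 to 4 and 5 to 8, and 155 to 1481 without single arrays. For genotype 26 passed in hippocampus (1 to 46 over the alternatives) and 7 in prefrontal cortex (0 to 65). Between regions 18462 passed, and 9334 of fewer probe sets with the brightest of each gene only. Over the alternatives, counts ran from 0 to 191 for the drug difference between regions (8 passed), from 0 to 149 for the compound in Tg2576 hippocampus (0), from 0 to 1081 in wild-type hippocampus (1), from 0 to 10 for genotype under vehicle in hippocampus (3) and from 0 to 25 in prefrontal cortex (0), and they were 4 or fewer in the remaining comparisons, where 0 passed. Same-numbered arrays of 2 groups did not deviate together throughout (r from -0.64 to 0.67). From 0 to 6 of 8 arrays matched their own number best, where about 1 of 8 would by chance. The highest such counts, 6 and 5, were those of hippocampus with prefrontal cortex of Tg2576 mice given vehicle (mean r 0.22) and of wild-type mice given vehicle (mean r 0.39), against 2 and 3 in the groups given PF-04447943 (0.061 and 0.15); the labels do not say that both regions came from the same mice. With the replicate number as a block, 1206 probe sets passed for PF-04447943 in hippocampus, the Slc32a1 probe set 1456457_at was at -0.27 (adjusted p = 0.0143 in limma) and Sst between genotypes at -0.24 (adjusted p = 0.111). In the region comparison the block ended 1 call, that of Slc32a1 1447574_s_at (adjusted p = 0.0715). The low probe sets 1447573_at and 1458020_at lay below the filter, where the signal limits what can be seen.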

Other observations

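The other interneuron genes varied with most of the 10 markers in hippocampus. Their mean level correlated with Slc32a1 (r = 0.79), Vip (r = 0.78), Reln (r = 0.77), Gad2 (r = 0.70), Gad1 (r = 0.66), Lhx6 (r = 0.65), Pvalb (r = 0.58) and Sst (r = 0.49) over 32 arrays, all past an adjusted permutation p of 0.05. With numbers 1 to 4 and 5 to 8 centred apart Sst did not pass (r = 0.50, adjusted p = 0.0771 by permutation). They did not pass with Npy (r = 0.14) or Cck (r = -0.22). In prefrontal cortex only Slc32a1 (r = 0.57) and Reln (r = 0.53) passed by Pearson's r, and Gad2 as well with the numbers centred apart. No share over genes outside the 10 is given, so these relations are not shown to be particular to the markers. For Sst in hippocampus the highest array of each of the 4 groups carried number 1, at 11.93 in Tg2576 mice given PF-04447943, 12.05 in Tg2576 mice given vehicle, 12.34 in wild-type mice given PF-04447943 and 12.28 in wild-type mice given vehicle. In prefrontal cortex the spread of Sst between arrays was small, with SDs of 0.074 to 0.16 in the 4 groups, against 0.54 to 0.59 for Pvalb.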
